A study of Homo sapiens with 6 samples.

Results

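The genes described here are those of the KMT2A (MLL) fusion complex and its cofactors: KMT2A, MEN1, PSIP1, MLLT3, MLLT1, AFF1, AFF4, ELL and DOT1L. They were the rows of the deposited gene table that carry these 9 symbols, each matched by exactly 1 row, out of 31853 rows in all. The rule used the symbols alone. Mon-Mac-6, a human cell line established from an acute monocytic leukaemia, was given 500 nM WD6305 for 48 h or DMSO, the vehicle, for 48 h. WD6305 is named in the series title as a PROTAC, a molecule that brings its target to a ubiquitin ligase, against METTL3, which is the catalytic part of the enzyme that methylates adenosines of messenger RNA to N6-methyladenosine (m6A). Each group had 3 poly(A) RNA-seq libraries of the one line. The labels do not state whether libraries were separate cultures, so p-values measure only how these samples spread, possibly for technical reasons.

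KMT2A encodes a histone methyltransferase that keeps HOX and other developmental genes active. In many acute leukaemias a translocation joins its amino-terminal part to a partner protein, most often AFF1 (AF4), MLLT3 (AF9), MLLT1 (ENL) or ELL, and Mon-Mac-6 is known to carry a KMT2A-MLLT3 fusion. The fusion protein is held on chromatin through menin (MEN1) and LEDGF (PSIP1), and its partner moiety brings in the super elongation complex, built on AFF4 and AFF1, and DOT1L, which methylates a lysine in the globular core of histone H3. A fusion transcript holds the first exons of KMT2A and the last exons of MLLT3. The gene-level values of these 2 genes therefore sum the intact and the fused transcripts, whose shares were not measured.

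MEN1 carried the one change that passed the test, so short stretches of its coding sequence around the letters GGACT, a common form of the sequence in which METTL3 methylates adenosine, are shown. They were read on the transcript's own strand from the GENCODE release 29 transcript of MEN1 that codes for the principal protein (GRCh38, chromosome 11, minus strand), which holds GGACT 2 times in 1830 coding bases. In the lines that follow, the letters GGACT are in capitals, with 10 bases on either side.
MEN1, across the junction of exons 7 and 8 of 10: ctgtcatccaGGACTacaactactg
MEN1, in exon 10, the last, chr11:64804594-64804618: aagcctcctgGGACTgtcgctggca
The first copy starts at base 1047 of the coding sequence and the second at base 1559. With 1.09 copies per kilobase of coding sequence, MEN1 stood near the median of 0.972 over the 13402 tested genes with such a transcript, of which 74.4% held at least 1 copy. KMT2A had 14 copies (1.18 per kilobase), AFF4 had 4 (1.15), DOT1L had 7 (1.52), ELL had 4 (2.15), AFF1 had 3 (0.826), and MLLT1 and MLLT3 had 1 each (0.596 and 0.587 per kilobase of coding sequence). PSIP1 had 0 in its coding sequence and 2 in its whole transcript. The whole transcripts of the others also held more copies than their coding sequences: 3 in MEN1, 15 in KMT2A, 7 in AFF4 and 9 in DOT1L. ELL had 5, AFF1 6, MLLT1 3 and MLLT3 4. Per kilobase of whole transcript MEN1 had 1.09 copies, against a median of 0.947. These are matches of letters, and the series measured no m6A.

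Deposited counts summed to between 64525948 and 71155346 per library. A count of 4 was held by 1071 to 1176 genes per library, against 553 to 636 genes for 3 and 357 to 380 for 5, so the counts may exceed the fragments sequenced. METTL3 RNA, which does not check the labels because the compound acts on the protein, was 78.2, 76.0 and 79.7 CPM (counts scaled to library size) in WD6305 libraries 1, 2 and 3, against 70.5, 64.9 and 66.4 CPM in the DMSO libraries. It was higher in all 3 treated libraries (log2 fold change 0.21, edgeR adjusted p = 0.0218), a call that 6 of 16 alternatives lost. The line's identity was checked on 12 monocytic and myeloid markers: 10 of them had an FPKM (fragments scaled to gene length and library size) of at least 1 in every library, CSF1R passed 1 only in the WD6305 libraries, and CD4 stood at 0.12 or less. Their summed FPKM was 8156 to 8982 under WD6305 and 4754 to 4976 under DMSO, nearly all of it from LYZ (4967 to 5752 FPKM under WD6305, 2891 to 3139 under DMSO) and ELANE (2864 to 2920 under WD6305, 1508 to 1606 under DMSO). CD14 (7.38 to 8.39 FPKM under WD6305, 9.99 to 10.3 under DMSO) and MPO (6.67 to 8.35 under WD6305, 9.40 to 10.1 under DMSO) were lower in every WD6305 library than in every DMSO library. LYZ, ELANE, CD33, CSF1R, ITGAM, CD68, SPI1 and PTPRC were higher in every WD6305 library than in every DMSO library. CD68, for example, was at 88.82 to 100.3 FPKM under WD6305 and 41.25 to 44.63 FPKM under DMSO. FCGR1A and CD4 overlapped. By CPM, the groups did not overlap, in either direction, for 40.8% of all tested genes. Among markers of other cells, the 9 matched epithelial genes summed to 5.64 to 33.4 FPKM under WD6305 and 7.74 to 42.0 FPKM under DMSO. Of these, KRT5 and KRT14 were at 0.06 FPKM or less in WD6305 1 and DMSO 3 and between 11.2 and 18.0 FPKM in the other 4 libraries, the same split as on the second principal component (16.3% of the variance). The 6 fibroblast genes summed to 0.24 to 4.56 FPKM under WD6305 and 0.34 to 0.47 FPKM under DMSO. The high end was WD6305 1 alone, where COL1A1 was at 3.48 FPKM, against 0.14 and 0.17 FPKM in WD6305 2 and 3. For the 3 matched lymphocyte genes of 7 the sums were 0.85 to 1.02 FPKM under WD6305 and 1.00 to 1.15 FPKM under DMSO, and for the 2 matched erythroid genes of 5 they were 0.06 to 0.46 FPKM under WD6305 and 0.40 to 0.79 FPKM under DMSO. The part of these transcripts in the results was not tested beyond leaving libraries out.

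Across the 9 genes, 1 was lower under WD6305, 0 were higher and 8 did not pass (edgeR quasi-likelihood test on the deposited estimated counts, Benjamini-Hochberg adjusted p under 0.05 over 18138 genes). In the same fit 23.4% of all tested genes passed, 12.2% higher and 11.2% lower. The 2 groups of libraries did not overlap for 1 member higher (AFF4) and 1 lower (MEN1), against 40.8% of all tested genes, 20.4% higher and 20.3% lower. At an unadjusted p under 0.05 there were 2 genes, MEN1 lower and AFF4 higher. The share of all tested genes at that threshold was not counted, but it is at least the 23.4% that passed after adjustment. DESeq2 and limma also called 0 of the 9 higher, against 2370 of 30377 genes in DESeq2 and 1952 of 12929 in limma on log2(FPKM + 1). Among the 10986 tested genes with a mean FPKM of at least 1, 33.8% passed. The median log2 fold change of the 9 genes was -0.05, against 0.00 over all tested genes. Without regard to direction their median was 0.05, against 0.26 over all tested genes and 0.20 over those with a mean FPKM of at least 1. In bulk RNA a change in every cell and a change in the share of cells that express a gene cannot be told apart.

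**Figure D1:**
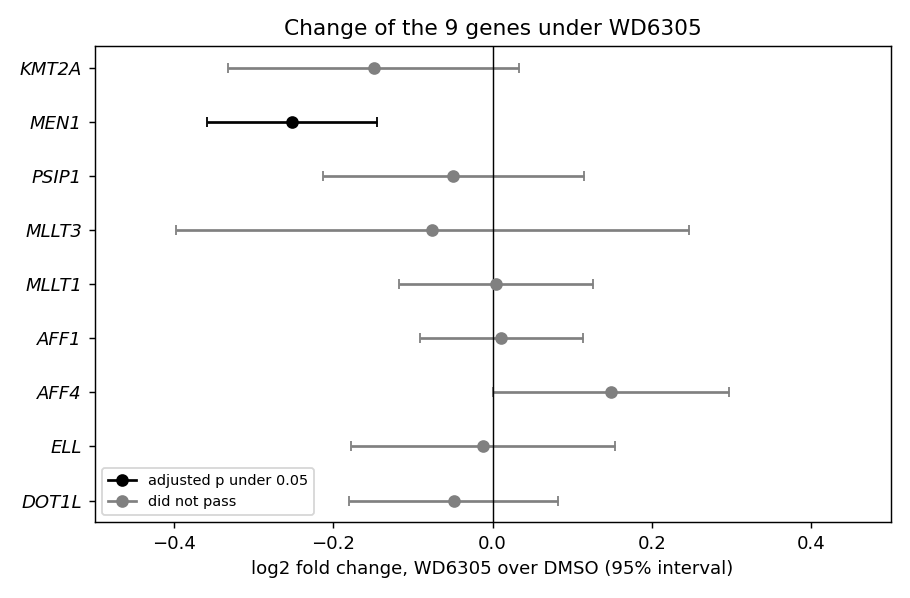
Log2 fold change (WD6305 over DMSO, horizontal axis) of the 9 genes from the edgeR fit, with bars for the 95% interval from its quasi-likelihood test, n = 3 libraries per group. MEN1, in black, lies wholly below 0 at -0.36 to -0.15, the intervals of KMT2A, PSIP1, MLLT3, MLLT1, AFF1, ELL and DOT1L include 0, and that of AFF4 starts just above 0 and the gene did not pass after adjustment.

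KMT2A (chromosome 11, 118436456 to 118526832, plus strand, GRCh38) is the methyltransferase itself. Its level was 77.9, 71.8 and 72.0 CPM in WD6305 libraries 1, 2 and 3, against 72.6, 83.3 and 90.0 CPM in DMSO libraries 1, 2 and 3. DMSO 1 lay among the WD6305 libraries, and DMSO 2 and DMSO 3 lay above them. Its log2 fold change was -0.15 (SE 0.08, 95% interval -0.33 to 0.03, adjusted p = 0.226, edgeR), which leaves room for a fall to 0.794-fold and for a rise to 1.02-fold. Without DMSO 1 the gene passed at a log2 fold change of -0.23 (edgeR adjusted p = 0.0475), and without DMSO 3 the value was -0.08.

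MEN1 (chromosome 11, 64803510 to 64811294, minus strand) encodes menin, the scaffold that binds the amino terminus of KMT2A and of its fusions. Its level was 74.1, 74.7 and 74.1 CPM in the WD6305 libraries, against 88.2, 91.0 and 86.4 CPM in the DMSO libraries, so every treated library lay below every vehicle library. As length-scaled levels these were 13.6, 13.8 and 13.5 FPKM under WD6305 and 16.2, 16.9 and 16.4 FPKM under DMSO. The level fell to 74.3 ± 0.363 CPM under WD6305, against 88.5 ± 2.28 CPM under DMSO (mean ± SD, n = 3 libraries each), 1.19-fold lower. The log2 fold change was -0.25 (SE 0.05, 95% interval -0.36 to -0.15, adjusted p = 0.00514, edgeR quasi-likelihood). In a two-sided exact permutation test p was 0.1, which 3 libraries against 3 cannot go below. MEN1 passed in each of 16 alternatives, with log2 fold changes of -0.28 to -0.23 and adjusted p between 0.00025 (DESeq2) and 0.0313 (edgeR without WD6305 3). Without WD6305 1 and DMSO 3, the libraries with little KRT5 and KRT14, the value was -0.27 (edgeR adjusted p = 0.00989). In size, 60.2% of tested genes with a mean FPKM of at least 1 had a smaller log2 fold change than MEN1, without regard to direction. No other row of the table overlaps MEN1.

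The genes whose profile over the 6 libraries was most like that of MEN1, by the root mean square difference of centred log2 CPM among 10212 genes, were MSN, ATP2A2 and SF3B3. MSN encodes moesin, which links membranes to actin, ATP2A2 a calcium pump of the endoplasmic reticulum, and SF3B3 a subunit of the splicing factor that recognises branch points. Their differences from MEN1 were 0.014, 0.017 and 0.017, and their log2 fold changes were -0.25, -0.28 and -0.26. They were picked for this likeness over the same libraries, so fold changes close to that of MEN1 follow from the choice. MSN, for example, averaged 1948 ± 13.3 CPM under WD6305 and 2315 ± 90.5 CPM under DMSO (SD, n = 3 each).

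PSIP1 (chromosome 9, 15464066 to 15510995, minus strand) encodes LEDGF, which binds menin and KMT2A and reads methylated histone H3 on transcribed genes. Its level was 70.1, 64.1 and 66.0 CPM under WD6305 and 64.2, 67.7 and 75.4 CPM under DMSO, with overlapping groups. This gave a log2 fold change of -0.05 (95% interval -0.21 to 0.11, edgeR adjusted p = 0.687), and it was 0.02 without DMSO 3. SNAPC3, on the opposite strand, overlaps PSIP1 and carried 63.5% as many counts (log2 fold change 0.11, edgeR adjusted p = 0.331). The sources used here do not say whether reads were counted by strand, so reads of overlapping genes may not be separated.

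**Figure D2:**
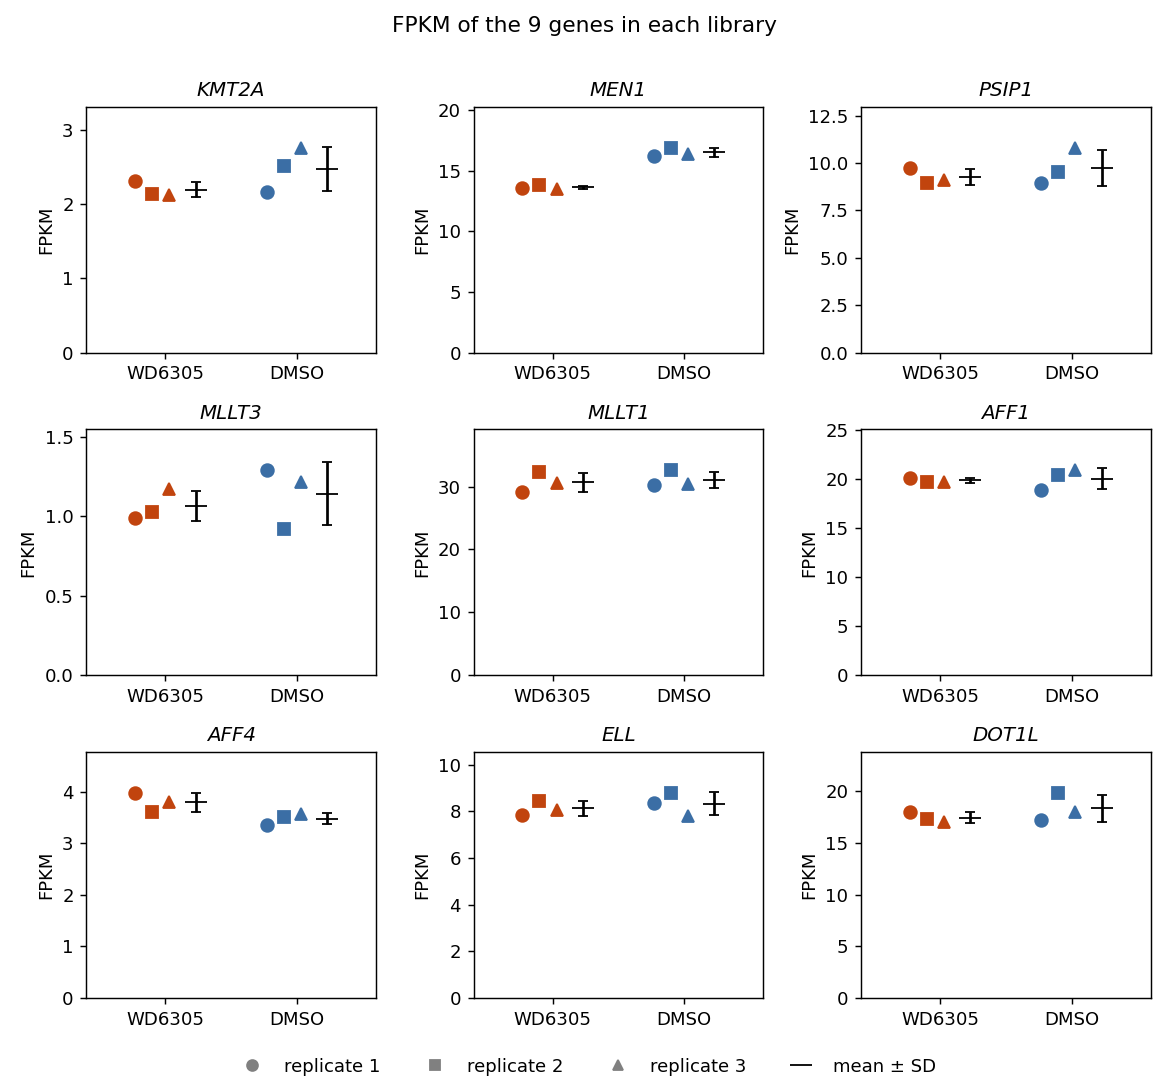
FPKM (vertical axes, each from 0) of the 9 genes in each of the 3 WD6305 libraries, left, and the 3 DMSO libraries, right, with the mean ± SD beside them. MEN1 is at 13.5 to 13.8 FPKM with WD6305 and 16.2 to 16.9 with DMSO, AFF4 at 3.61 to 3.97 FPKM with WD6305 and 3.36 to 3.56 with DMSO, and the groups overlap for KMT2A, PSIP1, MLLT3, MLLT1, AFF1, ELL and DOT1L.

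MLLT3 and MLLT1 are paralogs with a YEATS domain, which reads acylated lysines of histone H3, and they link DOT1L and the super elongation complex to chromatin. MLLT3 (chromosome 9, 20341669 to 20622499, minus strand) is the partner in the fusion of this line and had the lowest FPKM of the 9 genes. Its deposited counts were 551, 610 and 681 in the WD6305 libraries, against 786, 527 and 700 in the DMSO libraries, or 0.99, 1.03 and 1.17 FPKM under WD6305 and 1.29, 0.92 and 1.22 FPKM under DMSO. DMSO 2 was the lowest library and DMSO 1 the highest, so the WD6305 libraries lay within the DMSO range. The log2 fold change was -0.08 with the widest interval of the 9 genes, -0.40 to 0.25 (SE 0.14, edgeR adjusted p = 0.761).

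MLLT1 (chromosome 19, 6210381 to 6279975, minus strand) had the highest FPKM of the 9 genes. It stood at 148, 163 and 157 CPM under WD6305 and 153, 164 and 150 CPM under DMSO. The groups overlapped, with a log2 fold change of 0.00 (95% interval -0.12 to 0.13, edgeR adjusted p = 0.970), and its sign depended on the scaling. Per length, MLLT3 was at 0.0319 to 0.0382 of MLLT1 in the WD6305 libraries and at 0.0282 to 0.0427 of it in the DMSO libraries.

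AFF1 and AFF4 are the related scaffolds on which the super elongation complex is built, and both bind the kinase complex P-TEFb. AFF1 (chromosome 4, 86935002 to 87141039, plus strand) had 236, 230 and 233 CPM under WD6305 and 220, 236 and 237 CPM under DMSO. The groups overlapped, and its log2 fold change was 0.01 with the narrowest interval of the 9 genes, -0.09 to 0.11 (edgeR adjusted p = 0.898), with a sign that depended on the scaling. AFF4 (chromosome 5, 132875395 to 132963634, minus strand) had 47.9, 43.3 and 46.0 CPM under WD6305 and 40.4, 41.7 and 41.6 CPM under DMSO. Every WD6305 library lay above every DMSO library, as for 20.4% of all tested genes in this direction. AFF4 averaged 45.7 ± 2.31 CPM under WD6305 and 41.2 ± 0.738 CPM under DMSO (SD, n = 3 each). The log2 fold change was 0.15 (SE 0.07, 95% interval 0.00 to 0.30), and it missed the threshold after adjustment (edgeR adjusted p = 0.139, and 0.125 to 0.326 over the 16 alternatives).

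ELL (chromosome 19, 18442663 to 18522116, minus strand) encodes an elongation factor that keeps RNA polymerase II from pausing. It had 41.3, 44.1 and 42.6 CPM under WD6305 and 43.8, 45.6 and 39.7 CPM under DMSO, and the treated libraries lay within the vehicle range. The log2 fold change was -0.01 (95% interval -0.18 to 0.15, edgeR adjusted p = 0.931). DOT1L (chromosome 19, 2163933 to 2232578, plus strand) had 221, 211 and 211 CPM under WD6305 and 211, 240 and 214 CPM under DMSO. DMSO 2 was the highest, and the other 5 libraries were close together. The groups overlapped, with a log2 fold change of -0.05 (95% interval -0.18 to 0.08, edgeR adjusted p = 0.609). AP3D1 and PLEKHJ1, on the opposite strand, overlap DOT1L. Over their whole length they carried 102% and 32.3% as many counts as DOT1L, and the counts within the overlap were not measured. AP3D1 fell by 0.28 on the log2 scale (edgeR adjusted p = 0.00843).

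The order of levels by FPKM was the same in both groups: MLLT1, AFF1, DOT1L, MEN1, PSIP1, ELL, AFF4, KMT2A and MLLT3. Under WD6305 the means ran from 30.7 ± 1.55 FPKM for MLLT1 to 1.06 ± 0.0945 FPKM for MLLT3, and under DMSO from 31.1 ± 1.29 FPKM to 1.14 ± 0.197 FPKM (SD, n = 3). No neighbours in this order overlapped in their libraries under WD6305. Under DMSO the ranges of AFF1 (18.9 to 20.9 FPKM) and DOT1L (17.2 to 19.8 FPKM) overlapped, so the order of these 2 genes was not beyond their spread there. KMT2A, at 2.19 ± 0.101 FPKM under WD6305 and 2.48 ± 0.296 FPKM under DMSO, stood below its chromatin tethers: MEN1 was at 5.87 to 6.44 times its FPKM under WD6305 and 5.93 to 7.48 times under DMSO. The KMT2A and MLLT3 values sum intact and fused transcripts, and those of PSIP1 and DOT1L may hold reads of opposite-strand genes. How far this moves their places in the order was not measured.

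Ratios within each library were compared for 4 pairs of partners or paralogs. The log2 ratio of AFF4 to AFF1 CPM was -2.35 ± 0.0534 under WD6305 and -2.49 ± 0.0342 under DMSO, a difference of 0.14 with no overlap between groups (exact two-sided permutation p = 0.1, the smallest possible, 0.4 adjusted over the 4 pairs). MEN1 over PSIP1 was 0.16 ± 0.0714 under WD6305 and 0.36 ± 0.143 under DMSO (exact permutation p = 0.2). MEN1 over KMT2A was 0.01 ± 0.0712 under WD6305 and 0.12 ± 0.169 under DMSO (exact permutation p = 0.4). MLLT3 over MLLT1 was -4.09 ± 0.132 under WD6305 and -4.02 ± 0.316 under DMSO (exact permutation p = 0.8). These 3 pairs overlapped between groups, so a fall of MEN1 relative to KMT2A or PSIP1 was not shown.

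**Figure D3:**
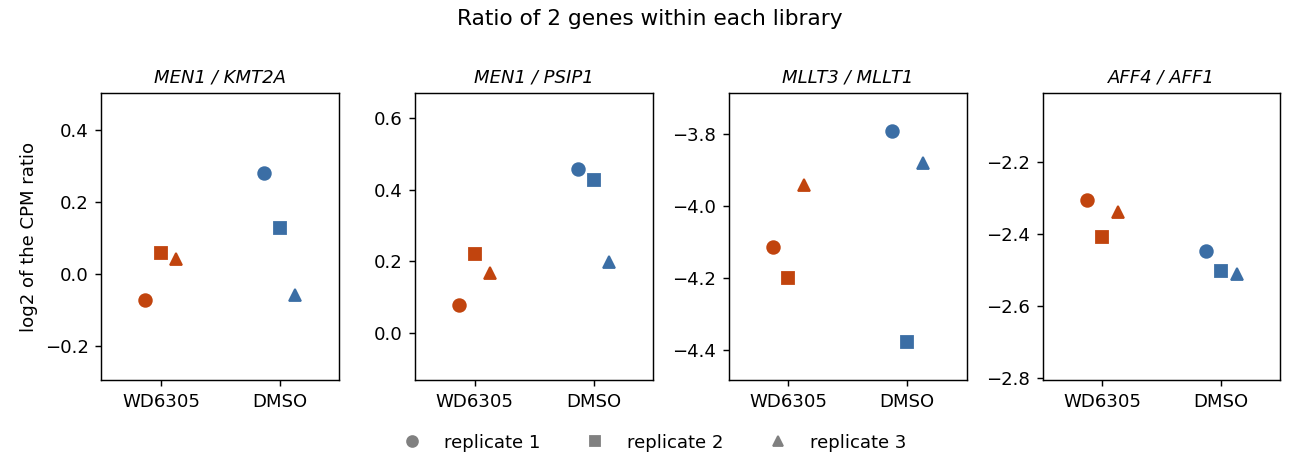
Log2 of the CPM ratio of 2 genes within each library (vertical axes, each spanning the same number of log2 units), with WD6305 libraries left and DMSO libraries right. The groups are apart for AFF4 over AFF1, with means of -2.35 under WD6305 and -2.49 under DMSO, and overlap for MEN1 over KMT2A, MEN1 over PSIP1 and MLLT3 over MLLT1.

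Beyond the 9 genes, 98 others that work with them were examined in 7 lists, of which 96 entered the test. Of these, 10 were higher and 14 lower, and the called log2 fold changes ran from -0.71 to 0.46. The share called ran from 0% of the PAF1 complex list to 33.3% of the DOT1L list, against 23.4% of all tested genes and 33.8% of those with a mean FPKM of at least 1. Of the 24 calls, 12 held in every alternative and 12 were lost in at least 1, with 0 changes of sign. Over all genes, DESeq2 called 2370 higher and 2422 lower of 30377, and limma on log2(FPKM + 1) called 1952 and 2295 of 12929. List counts at an unadjusted p under 0.05 have no such background, because that share of all genes was not counted. It is at least the 23.4% that passed after adjustment.

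The first list held the subunits that KMT2A shares with the related histone methyltransferases, and the relatives themselves. Of 12 genes 2 were lower, 0 were higher and 10 did not pass, with a median log2 fold change of -0.07. At an unadjusted p under 0.05 edgeR had 0 higher and 4 lower, and DESeq2 and limma also called 0 higher. In edgeR 1 was higher without DMSO 3 and without both WD6305 1 and DMSO 3, and 1 was lower without WD6305 2 or WD6305 3. WDR5, the core subunit that grips the KMT2A catalytic region, fell to 83.6 ± 0.0596 CPM under WD6305, against 114 ± 5.41 CPM under DMSO, a log2 fold change of -0.45 (SE 0.05, edgeR adjusted p = 0.000384) that held in every alternative. HCFC1, a chromatin adaptor that binds menin-containing and related complexes, fell by 0.29 (edgeR adjusted p = 0.0162) and lost its call without WD6305 2 or WD6305 3 (0.0589 to 0.0723). The other core subunits did not pass, at -0.19 (RBBP5), 0.00 (ASH2L) and -0.22 (DPY30) on the log2 scale.

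Among genes of the super elongation complex and P-TEFb, 3 of 13 tested were higher, 0 lower and 10 did not pass, with a median of 0.08. CDK9, the kinase of P-TEFb, averaged 77.7 ± 2.15 CPM under WD6305 and 66.7 ± 1.55 CPM under DMSO (log2 fold change 0.22, edgeR adjusted p = 0.0146), and lost its call without WD6305 1 or with the replicate block (0.0551 to 0.0578). EAF2, which binds ELL, rose to 59.3 ± 3.31 CPM under WD6305, against 44.6 ± 2.78 CPM under DMSO (log2 fold change 0.41, edgeR adjusted p = 0.00399), and passed in every alternative. LARP7, a protein of the 7SK RNA complex that holds P-TEFb inactive, rose by 0.32 (edgeR adjusted p = 0.0322) but lost its call in 10 of 16 alternatives (0.0526 to 0.103). At an unadjusted p under 0.05 edgeR had 4 higher and 1 lower, DESeq2 called 3 and 1, and limma 2 and 0. The count higher was 1 without WD6305 1 and with the replicate block. In edgeR the count lower was 1 without DMSO 3 and without both WD6305 1 and DMSO 3. It was also 1 with library sizes alone and with a filter of mean FPKM at least 1.

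In the list of DOT1L partners and the machinery of histone H2B ubiquitylation, which DOT1L needs for its activity, 3 of 9 were lower, 0 higher and 6 did not pass, with a median of -0.12. SKP1, found with DOT1L and best known as a subunit of cullin ubiquitin ligases, fell by 0.28 and RNF40, a ligase for H2B, by 0.24 on the log2 scale (edgeR adjusted p = 0.00597 and 0.00664), both in every alternative. TRRAP, a scaffold of acetyltransferase complexes, fell by 0.25 (edgeR adjusted p = 0.0337) and lost its call in 7 of 16 alternatives (0.0526 to 0.137). The counts were again 0 higher and 3 lower at an unadjusted p under 0.05, in DESeq2 and in limma, but 1 was higher in edgeR without DMSO 3 and without both WD6305 1 and DMSO 3. MLLT10, which partners DOT1L and is itself found fused to KMT2A, had a log2 fold change of 0.03. Of the 6 PAF1 complex genes, which bring KMT2A to transcribed chromatin, 0 passed in edgeR, with a median of 0.01. At an unadjusted p under 0.05 there were 1 higher and 1 lower, and DESeq2 and limma called 0. In edgeR 1 was higher without DMSO 3 and without both WD6305 1 and DMSO 3.

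**Figure D4:**
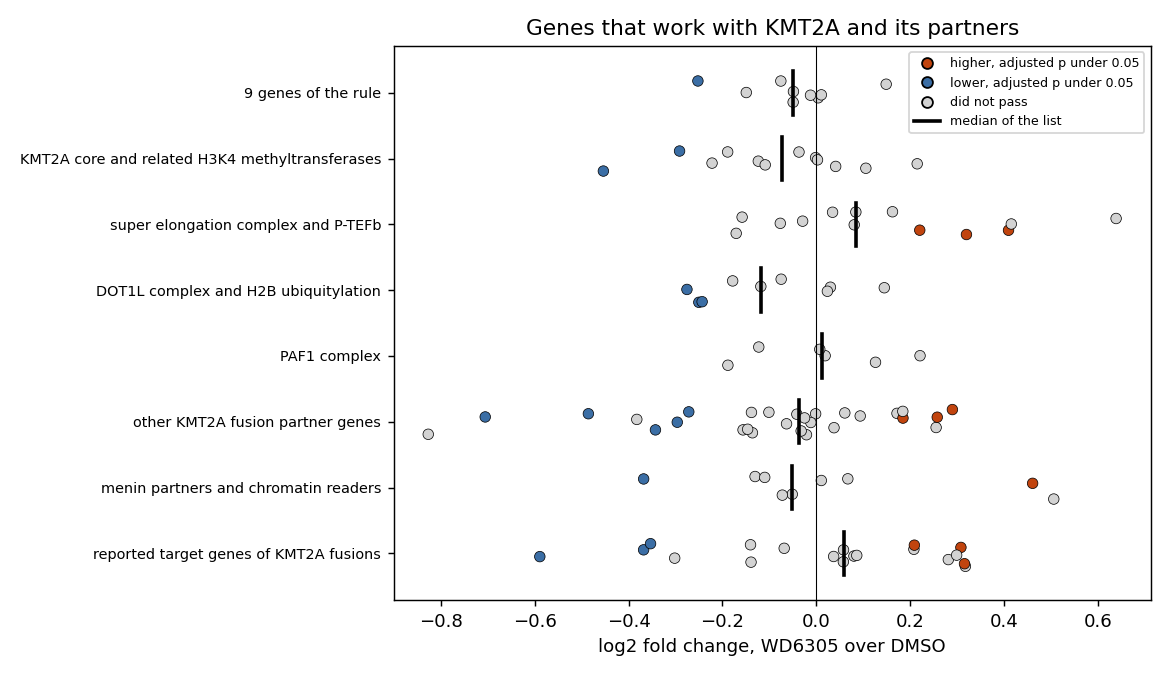
Log2 fold change (WD6305 over DMSO, horizontal axis) of the 9 genes and of each tested gene in the 7 lists, with a line at the median of each list and colour for genes with an edgeR adjusted p under 0.05. MEN1 at -0.25 is the lowest of the 9 genes, WDR5 at -0.45 the lowest of its list, and MLLT11 at -0.71 the lowest coloured point.

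Of 28 other genes found fused to KMT2A in leukaemia, 3 were higher, 5 lower and 20 did not pass (median -0.04). The count higher was 1 without WD6305 1, without DMSO 1 and with the replicate block, and 5 without DMSO 3, and the count lower was 3 without WD6305 1 and 2 without WD6305 3. SEPTIN9, a cytoskeletal GTPase, fell to 164 ± 5.69 CPM under WD6305, against 208 ± 6.74 CPM under DMSO, and MLLT11 fell to 7.10 ± 0.302 CPM under WD6305, against 11.6 ± 1.09 CPM under DMSO, with log2 fold changes of -0.34 and -0.71 (edgeR adjusted p = 0.00108 and 0.00192). LASP1, an actin-binding protein, fell by 0.30 (edgeR adjusted p = 0.00997, and 0.0512 without WD6305 3), and CBL, a ubiquitin ligase for receptor kinases, rose by 0.26 (edgeR adjusted p = 0.00944).

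Of 9 menin partners and chromatin readers, 1 was higher and 1 lower, and 7 did not pass (median -0.05). The count higher was 2 without DMSO 3 and without both WD6305 1 and DMSO 3. It was also 2 with counts divided by 4 and with a filter of mean FPKM at least 1. PHIP had the largest change of the list, 0.51 on the log2 scale, but its groups overlapped and it did not pass (edgeR adjusted p = 0.0563). HDGFL2, a relative of PSIP1 with the same kinds of chromatin and protein-binding domains, fell to 76.6 ± 2.71 CPM under WD6305, against 98.8 ± 2.69 CPM under DMSO (log2 fold change -0.37, edgeR adjusted p = 0.00109). YEATS4, a YEATS-domain relative of MLLT1 and MLLT3 in other chromatin complexes, rose to 23.2 ± 1.82 CPM under WD6305, against 16.8 ± 1.54 CPM under DMSO (log2 fold change 0.46, edgeR adjusted p = 0.00882). JUND, a transcription factor bound by menin, had a log2 fold change of -0.13 and did not pass.

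Among genes reported as targets of KMT2A fusions, 3 of 19 tested were higher, 3 lower and 13 did not pass, with a median of 0.06. The count higher was 6 without DMSO 3 and without both WD6305 1 and DMSO 3, 1 without WD6305 3 and 5 in DESeq2. The count lower was 4 in limma, without DMSO 3 and without both WD6305 1 and DMSO 3. The largest fall among them was in HOXA7, at 18.9 ± 2.27 CPM under WD6305 and 28.4 ± 2.54 CPM under DMSO (log2 fold change -0.59, edgeR adjusted p = 0.00476). UBE2E1, a ubiquitin-conjugating enzyme, fell by 0.35 and MYC by 0.37, while CDKN2C, an inhibitor of cyclin-dependent kinases, rose by 0.21 (edgeR adjusted p = 0.0049, 0.000664 and 0.0099). Leaving out WD6305 3 ended the call of CDKN2C (edgeR adjusted p = 0.0577). The other rises were in MYB, a transcription factor of blood progenitors, at 0.32 (edgeR adjusted p = 0.0122, and 0.0523 without DMSO 2), and ZEB2, a transcriptional repressor, at 0.31 on the log2 scale (edgeR adjusted p = 0.0212). ZEB2 lost its call in 7 of 16 alternatives (0.0506 to 0.0823). HOXA9, HOXA10, MEIS1 and PBX3, the targets most often used to read out the fusion, did not pass, at -0.14, -0.14, -0.07 and 0.06 on the log2 scale. HOXA5 did not pass either, at -0.30 (edgeR adjusted p = 0.0938). Its WD6305 libraries all lay below its DMSO libraries, as for 20.3% of all tested genes in this direction.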

How the data were processed

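Poly(A) RNA of 6 libraries, 3 per group, was sequenced by the authors, who used fastp, HISAT2, StringTie and edgeR with GRCh38, per the submitters' processing notes. The sources used here give no versions, settings or use of strand. The deposited table holds an estimated count per gene and library, in whole numbers, and an FPKM value that the authors scaled to length and library size. It has 0 columns of other samples and 0 rows without a gene name.

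Libraries were grouped by their labels. The members and lists were chosen with earlier results of these data known. From the counts, filterByExpr kept 18138 genes, all 9 members among them, libraries were scaled by TMM (factors 0.987 to 1.02), and WD6305 was tested against DMSO with the quasi-likelihood test of edgeR 4.0.16 in R 4.3.3, two-sided, with Benjamini-Hochberg adjustment over all tested genes at 0.05 (biological coefficient of variation 20.8%). Standard errors and 95% intervals came from the quasi-likelihood F value. CPM is on the TMM-scaled library size. Alternatives were DESeq2 1.42.0, limma 3.58.1 on log2(FPKM + 1) and log2(FPKM + 0.1) for genes of at least 0.5 FPKM in 3 libraries, other scalings and filters, counts divided by 4, a replicate block and leaving libraries out. Libraries of a group differed by a chi-square per degree of freedom of 3.78 to 10.5 on counts divided by 4, more than counting noise alone, so none was treated as 1 library deposited more than once. This does not show that they were separate cultures.

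Named genes were the 9 members, METTL3, up to 4 called genes per list by smallest adjusted p (all where 5 or fewer were called), and the 3 genes nearest in profile to each called member. RBBP5, ASH2L, DPY30, MLLT10, JUND, PHIP, MYB, ZEB2, HOXA5, HOXA9, HOXA10, MEIS1 and PBX3 were named outside that rule, after their values were seen, as were overlapping genes. Lists were described by counts and medians, with no test of the list.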

Additional observations from a re-analysis of the deposited data

How the results depend on the processing

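MEN1 kept its direction and its call in each of the 16 alternatives, and the count of members called higher was 0 in each. The count called lower was 1 to 2 when a library was left out, with KMT2A added without DMSO 1. Over the same 6 fits, all genes called higher numbered 1446 to 2563 and lower 1310 to 2077, the lowest without WD6305 3. Members close to 0 changed sign without passing. MLLT1 was at -0.0035 with DESeq2 size factors, -0.0073 in DESeq2, -0.0197 with library sizes alone, and -0.0191 and -0.01966 in limma with the larger and smaller pseudocount. AFF1 was at -0.013 with library sizes alone, -0.00079 in DESeq2, and -0.0119 and -0.0124 in limma. MLLT3 was at 0.0093 without both WD6305 1 and DMSO 3. With single libraries left out the ranges were -0.1005 to 0.019 for PSIP1, -0.21 to 0.028 for MLLT3, -0.03013 to 0.04018 for MLLT1, -0.024 to 0.02956 for AFF1, -0.067 to 0.029 for ELL and -0.085 to 0.012 for DOT1L, and the cause was not tested. Over the 7 lists, 29 of 224 counts of calls moved by over 1.5 times.

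Same-numbered libraries deviated with correlations of -0.234, 0.014 and -0.153, against -0.115 to 0.23 for libraries of different number. These values do not show a pairing by number, and with 3 libraries a group they cannot exclude one. With the replicate number as a block, MEN1 was at -0.25 (edgeR adjusted p = 0.0261), the members counted 0 higher and 1 lower, and all genes 1736 and 1468. METTL3 (0.21, edgeR adjusted p = 0.0218) lost its call under 6 alternatives (0.0501 to 0.0931). With 3 libraries a group, a gene that did not pass may still have changed by as much as its interval allows. The intervals are not adjusted for the number of genes tested, so they set no limit of detection.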
